A study of Rattus norvegicus with 6 samples.

Results

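The comparison described here is high against normal protein in the livers of rats on a high sucrose, high fat background: the array labelled HP-HS-HF against the array labelled NP-HS-HF, which are 2 of the 6 arrays of the series. The 2 arrays are identified by their labels, and the quantity throughout is the log2 value on HP-HS-HF minus that on NP-HS-HF. All animals were adult male Wistar rats that spent 10 days on the normal protein diet and then 5 weeks (33 to 37 days) on their assigned diet. They were killed in the fed state, 2 h after a calibrated meal of 87.6 kJ. Each array carried 1 pool of liver RNA from 5 of the 30 rats (1500 ng per rat), so animals within a diet cannot be told apart and no diet has a replicate. The remaining arrays are NP and HP (low fat) and NP-HS and HP-HS (high sucrose), and the pairs HP against NP and HP-HS against NP-HS share no pool with the pair described. The labels call the animals mice in one field and rats in the others, and they are taken as rats. What the diets contained is not used here beyond their names.

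Liver meets a high protein supply by taking up amino acids, removing their nitrogen as urea and sending their carbon to glucose or to oxidation. Dietary sucrose and insulin raise the enzymes that make fatty acids, whereas dietary fat supplies ready-made fatty acids that the liver oxidises, exports or stores in lipid droplets. Hepatocytes divide this work along the blood flow, with urea and glucose formation nearer the portal vein and glutamine formation and many detoxifying enzymes nearer the less oxygenated central vein.

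The deposited values are RMA log2 intensities of 29214 probe sets, of which 20450 lay above the 30th percentile of the mean level (log2 5.14), and these stood for 11421 named genes, 1 probe set each. Pearson correlations across probe sets lay between 0.9949 and 0.9964 for the pairs of arrays, with 0.9952 for the pair described, and the array medians lay within 0.03 of each other. With 1 array per diet there is no measure of error and no test. The number of arrays limits the precision, and every difference below compares 2 pools, not 2 diets with their spread. The tissue label was checked on 12 hepatocyte markers (albumin, transthyretin and others), whose mean log2 value was 12.99 on both arrays, near the top of the range of all values (13.92).

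Most genes differed little between the pools. The median difference over the 11421 genes was -0.01, the middle 50% lay between -0.11 and 0.10, and the standard deviation across genes was 0.19, close to the 0.18 seen for each of the other protein pairs. At 1.5-fold or more, 72 genes (0.63% of those tested) were higher and 52 (0.455%) were lower with high protein, and 14 and 10 of these reached 2-fold. At 1.2-fold or more, 719 genes (6.3%) were higher and 751 (6.58%) were lower. These are the shares to set beside every count of list members at 1.2-fold in this pair below. For counts in the low fat pair the shares are 5.93% higher and 4.26% lower. For counts in the high sucrose pair they are 4.9% higher and 5.1% lower. Of the 72 higher genes, 48 had their highest value of all 6 arrays on HP-HS-HF, 10 of them together with their lowest on NP-HS-HF. A further 11 had only their lowest on NP-HS-HF, and for 13 neither array was at an extreme. Of the 52 lower genes, 43 had their lowest value on HP-HS-HF, and for 24 of these NP-HS-HF was also the highest array. Both sets were selected by the difference between these same 2 arrays, so an extreme on either array follows in part from the selection. The share of all genes at such an extreme was not counted. The pathway and marker lists below were chosen with earlier results of these data known, so their counts beside the share of all genes are a description. Since whole liver was measured, fewer cells of a type and less RNA per cell cannot be told apart in any of the values given here.

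**Figure D1:**
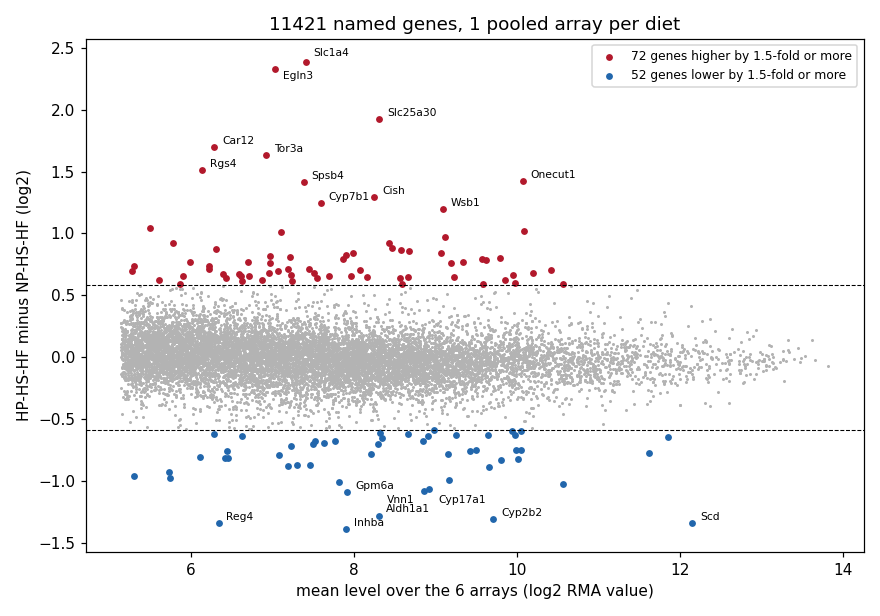
The log2 difference HP-HS-HF minus NP-HS-HF (vertical) is plotted against the mean log2 RMA value over the 6 arrays (horizontal) for 11421 named genes, each a point, with dashed lines at 1.5-fold. The 72 red genes lie above and the 52 blue genes below, with Slc1a4 (2.38) and Egln3 (2.33) at the top and Inhba (-1.38) at the bottom.

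Genes of amino acid uptake were led by Slc1a4, the plasma membrane carrier of serine, alanine and other small neutral amino acids (probe set 10778620). Its log2 value was 6.63 on NP-HS-HF and 9.01 on HP-HS-HF, a 5.22-fold difference that was the largest of the comparison. The other normal protein pools lay at 6.61 and 6.69 and the other high protein pools at 7.76 and 7.75, so the 3 pools per protein level did not overlap and HP-HS-HF stood apart from all. How many of all genes separate the protein levels in this way was not counted. Genes named here and below were largely picked by the pair described, which makes such a separation more likely. Slc1a2, the glutamate carrier of pericentral hepatocytes, was higher by 0.68 here, less than the 1.10 on low fat and 1.02 on high sucrose. Slc6a20a, a carrier of imino acids, was higher by 0.58 from a dim value of 5.10, under the filter's log2 5.14. Slc38a7, a lysosomal glutamine carrier, lay at -0.49 and Slc6a9, a glycine carrier, at -0.47. Of 30 tested amino acid transporters 5 were higher (16.7%, beside 6.3% of all genes) and 2 lower (6.67%, beside 6.58%) at 1.2-fold. Their median was 0.02, near that of all genes. The upstream bases of Slc1a4 are shown because the gene had the largest difference and its window holds motifs that stress and nutrient factors can bind. They are the 250 bases before the RefSeq start (GRCr8, chr14:98761563-98761812, minus strand, written 5′ to 3′ along the gene), and capitals mark the 3 matches to ACGTG, the core of hypoxia response elements, on either strand.
Slc1a4: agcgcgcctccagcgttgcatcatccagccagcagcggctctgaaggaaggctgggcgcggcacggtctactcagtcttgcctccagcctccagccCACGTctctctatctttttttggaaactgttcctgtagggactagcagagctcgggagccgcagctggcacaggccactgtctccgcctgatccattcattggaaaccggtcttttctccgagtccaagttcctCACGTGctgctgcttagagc
The last 2 matches overlap as CACGTG, the palindromic E-box. The same window also holds 1 match to TGATGNAA, the amino acid response motif, which 4.16% of genes with a RefSeq promoter window hold. A match of letters is a description and not a binding site.

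**Figure D2:**
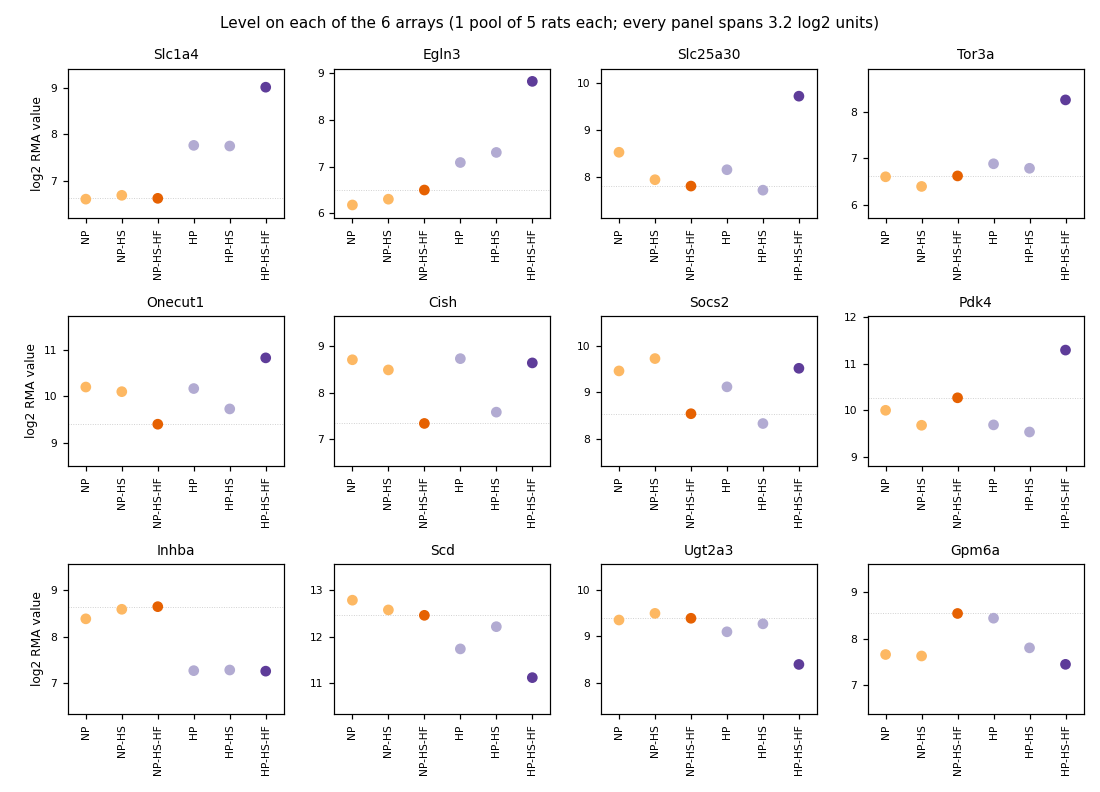
The deposited log2 RMA value of 12 genes is plotted on each of the 6 arrays, 1 pool of 5 rats per point, with normal protein in orange, high protein in purple, the compared pair in the darker shades and a dotted line at NP-HS-HF. Slc25a30 stands up on HP-HS-HF alone. Tor3a and Pdk4 are also highest there, with the other high protein arrays next for Tor3a and NP-HS-HF next for Pdk4. Inhba separates the protein levels on all backgrounds, and Cish and Socs2 are low on NP-HS-HF and HP-HS.

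Genes of oxygen sensing came next in size. Egln3, a prolyl hydroxylase that marks hypoxia-inducible factors for degradation and is itself one of their targets (probe set 10889923), had a log2 value of 6.50 on NP-HS-HF and 8.83 on HP-HS-HF, 5.03-fold higher. It lay at 6.18 and 6.30 on the other normal protein arrays and at 7.09 and 7.31 on the other high protein arrays. Thus every high protein pool was above every normal protein pool, and the HP-HS-HF pool was highest. Of the 37 tested genes of the list of oxygen sensors and hypoxia targets, 10 were higher and 0 lower at 1.2-fold (27.0%, beside 6.3% of all genes), and 6 reached 1.5-fold. The low fat pair had 7 higher and 0 lower and the high sucrose pair 5 and 0, and the list median was 0.16 here, 0.11 on low fat and 0.07 on high sucrose.

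The hypoxia targets at 1.5-fold included enzymes of protein folding and collagen formation. Ero1a, the oxidase that drives disulfide formation in the endoplasmic reticulum, went from 9.39 to 10.18 (0.79). P4ha1, a catalytic subunit of collagen prolyl hydroxylase, went from 9.17 to 9.94 (0.77). Ankrd37, a small ankyrin repeat protein used as a marker of hypoxia-inducible factor activity, had 6.50 and 7.27 (0.77), with 6.47 to 6.80 on the other 4 arrays. Hmox1, the haem-degrading oxygenase, was higher by 0.71, and the glycolytic aldolase Aldoa by 0.66. For each of these 5 genes HP-HS-HF was the highest of the 6 arrays. The list was not uniform: the transcription factor subunit Hif1a and Pdk1, another common target, both lay at -0.20. The glucose transporter Slc2a1 was higher by 0.32, but its highest array was HP and its lowest NP-HS-HF.

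Upstream bases of Ankrd37 are shown as an example of a target whose window holds the hypoxia core motif (GRCr8, chr16:53001257-53001506, plus strand, RefSeq), with the 3 matches to ACGTG on either strand in capitals.
Ankrd37: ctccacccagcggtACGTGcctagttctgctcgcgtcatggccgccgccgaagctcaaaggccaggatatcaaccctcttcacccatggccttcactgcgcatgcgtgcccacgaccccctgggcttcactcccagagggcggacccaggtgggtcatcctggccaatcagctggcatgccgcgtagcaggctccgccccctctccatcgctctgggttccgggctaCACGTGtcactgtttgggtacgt
The last 2 of these again overlap as CACGTG. The window of Egln3 itself holds no match to any of the 7 motifs searched, which says only that these letters are not in the window. Among genes with a RefSeq window, ACGTG was found in 12 of 48 higher genes (25%) and in 12 of 42 lower genes (28.6%), beside 20.9% of all 27457 genes. The hypoxia core therefore had a similar share on both sides of the comparison.

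Genes that respond to growth hormone formed another group, with a pattern over the arrays unlike that of Slc1a4 and Egln3. Cish, a feedback inhibitor of STAT5 signalling induced by growth hormone, had a log2 value of 7.34 on NP-HS-HF and 8.64 on HP-HS-HF (1.30, 2.46-fold). On the other arrays it lay at 8.71 (NP), 8.49 (NP-HS), 8.73 (HP) and 7.59 (HP-HS). NP-HS-HF was thus the lowest array, with HP-HS next to it, and HP-HS-HF lay among the higher ones. Socs2, another inhibitor of growth hormone signalling, had the same pair of low arrays, with 8.54 on NP-HS-HF, 8.33 on HP-HS and 9.12 to 9.72 on the other 4 (difference 0.97). Onecut1 (HNF6), a hepatocyte transcription factor that growth hormone induces, had its lowest value on NP-HS-HF (9.40) and its highest on HP-HS-HF (10.83), with 9.73 to 10.20 on the rest.

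Other members of the growth hormone list moved less. Prlr, the prolactin receptor, was higher by 0.64 but lay inside the range of the other arrays. The female-type Cyp2c12 was higher by 0.33, whereas Ghr, the growth hormone receptor, Igf1, its main endocrine product, and the male-type Cyp2c11 all differed by less than 1.2-fold. In all, 6 of 26 tested members were higher (23.1%, beside 6.3% of all genes) and 0 lower at 1.2-fold, and 4 were higher at 1.5-fold (0.63% of all genes). The low fat pair had 4 higher and 2 lower at 1.2-fold and the high sucrose pair 3 higher and 5 lower. The list had a median of 0.07, beside 0.02 on low fat and -0.07 on high sucrose.

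The window of Cish is shown because it carries the STAT core motif TTCNNNGAA, which was searched after the values of these genes were seen (GRCr8, chr8:116850719-116850968, plus strand, RefSeq). Capitals mark its 4 matches.
Cish: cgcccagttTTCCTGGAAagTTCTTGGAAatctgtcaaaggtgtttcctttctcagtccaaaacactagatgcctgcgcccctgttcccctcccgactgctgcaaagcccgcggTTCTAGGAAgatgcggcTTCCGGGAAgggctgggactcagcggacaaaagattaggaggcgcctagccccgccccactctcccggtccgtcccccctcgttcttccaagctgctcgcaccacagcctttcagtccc
One or more such matches are held by 9.39% of all genes with a window, by 5 of the 48 higher genes (10.4%) and by 3 of the 42 lower genes (7.14%), so the motif is not a common feature of the higher genes.

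**Figure D3:**
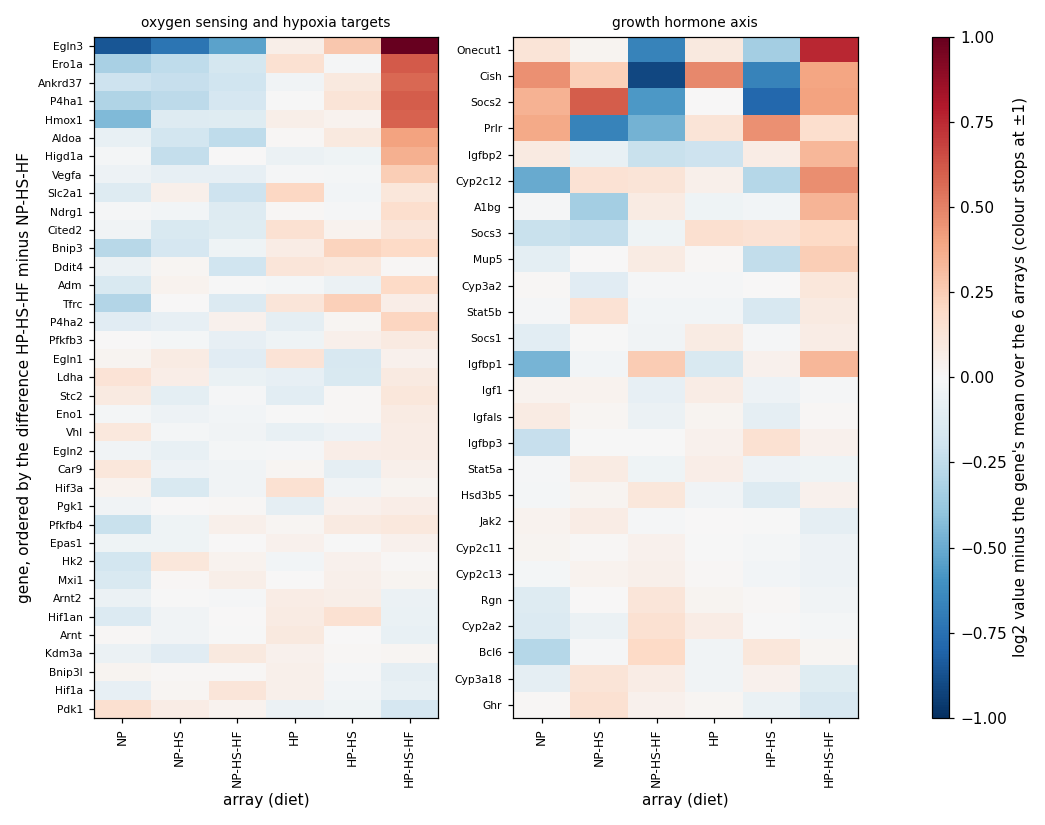
Each cell gives a gene's log2 RMA value on 1 array (horizontal, diet) minus its mean over the 6 arrays, for the 37 oxygen sensing genes and the 26 growth hormone genes (vertical), ordered by HP-HS-HF minus NP-HS-HF, with the colour stopping at 1. Egln3, Ero1a, Ankrd37, P4ha1 and Hmox1 are highest on HP-HS-HF, while Cish and Socs2 are low on NP-HS-HF and HP-HS.

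Mitochondrial carriers held one of the sharpest differences. Slc25a30, an inner membrane carrier (probe set 10785326), lay at 7.80 on NP-HS-HF and 9.73 on HP-HS-HF, 3.80-fold higher. The other 4 arrays lay between 7.71 and 8.52, and on the other backgrounds the protein difference was -0.37 (low fat) and -0.22 (high sucrose), so its high value was found on HP-HS-HF alone. Slc25a21, which carries the oxodicarboxylates of lysine and tryptophan breakdown, was higher by 0.82, and Slc25a25, the calcium-regulated exchanger of ATP-Mg and phosphate, by 0.79. Both were also higher with high protein on the other backgrounds, by 0.93 and 0.59 for Slc25a21 and by 0.43 and 1.44 for Slc25a25. Slc25a34, another carrier of the family, was higher by 0.47. Of 40 tested carriers 6 were higher and 1 was lower at 1.2-fold, and the list median was 0.01, with a sign that depends on the scaling.

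Enzymes of amino acid breakdown were mixed. Gldc, the decarboxylase of the glycine cleavage system, was higher by 0.76 and had its highest value on HP-HS-HF. Acmsd, which directs tryptophan carbon away from NAD synthesis, was higher by 0.64, and the cytosolic aspartate aminotransferase Got1 by 0.54. Each of these also differed in the same direction on low fat (0.54, 1.29 and 0.64) and on high sucrose (0.46, 0.96 and 0.89). In the other direction, Csad, which makes the taurine precursor hypotaurine, lay at -0.76, Shmt1, the cytosolic serine hydroxymethyltransferase, at -0.41 and Bhmt, which remethylates homocysteine, at -0.40. Of 58 tested enzymes 8 were higher and 6 lower at 1.2-fold, with a median of -0.02. In the urea cycle, Asl, which splits argininosuccinate, was higher by 0.49, Car5a, the mitochondrial carbonic anhydrase that supplies bicarbonate, by 0.37, and Otc, which forms citrulline, lay at -0.27. The median of the 12 tested urea cycle genes was 0.04, against 0.24 in the low fat pair and 0.21 in the high sucrose pair, and whether these medians differ was not tested.

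At the entry of pyruvate into mitochondria, Pdk4, the kinase that switches pyruvate dehydrogenase off, had 10.27 on NP-HS-HF and 11.29 on HP-HS-HF (1.02), with 9.54 to 10.00 on the other 4 arrays. The 2 high fat pools were thus the highest of the 6, and the high protein one stood above the other. Pdp2, a phosphatase that switches the same complex on, was higher too, from 7.94 to 8.65 (0.71), whereas Mpc1, a subunit of the mitochondrial pyruvate carrier, lay at -0.40. Pklr, the pyruvate kinase of hepatocytes, lay at -0.48 with its lowest value on HP-HS-HF, a difference close to the -0.49 found on each other background. Of 39 tested genes of glycolysis, fructose use and ChREBP, 3 were higher and 5 lower at 1.2-fold (median -0.07). In gluconeogenesis, G6pc1, the glucose-6-phosphatase that releases free glucose, was higher by 0.37 and had differences of -0.02 and 0.02 on the other backgrounds. Of 24 tested gluconeogenic genes 5 were higher and 1 was lower, with a median of -0.0014 whose sign depends on the scaling.

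Genes of fatty acid synthesis included the brightest of the lower genes. Scd, the desaturase that makes oleate from stearate (a bright gene on all arrays), had a log2 value of 12.46 on NP-HS-HF and 11.13 on HP-HS-HF (-1.34, 2.52-fold lower). The other arrays lay at 12.79 (NP), 12.58 (NP-HS), 11.74 (HP) and 12.22 (HP-HS), so every high protein pool was below every normal protein pool and HP-HS-HF was the lowest. Acaca, the carboxylase that commits acetyl-CoA to fatty acid synthesis, had the same order, with 10.24 on NP-HS-HF, 9.49 on HP-HS-HF and a difference of -0.75. Me1, which supplies NADPH for synthesis, lay at -0.44, Lpin2, a phosphatidate phosphatase, at -0.37 and Fasn, the fatty acid synthase, at -0.33. Of 30 tested genes of this list, 2 were higher and 8 lower at 1.2-fold (26.7% lower, beside 6.58% of all genes), and the median was -0.08, against 0.03 for each of the other protein pairs. The low fat pair also had 8 lower members, with 4 higher, and the high sucrose pair had 4 lower and 2 higher.

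Genes of fat storage more often differed the other way. Plin2, which coats hepatic lipid droplets, went from 9.89 to 10.49 (0.60), with 9.73 to 9.98 on the other 4 arrays. G0s2, an inhibitor of adipose triglyceride lipase, went from 9.54 to 10.12 (0.58), and the fatty acid transporter Cd36 was higher by 0.42 but inside the range of the other arrays. Hsd17b13, a hepatocyte lipid droplet enzyme, differed in the opposite direction, from 10.37 to 9.80 (-0.57), the lowest of the 6 arrays. NP-HS also lay at 10.37. Of 25 tested genes of the list 5 were higher (20.0%, beside 6.3% of all genes) and 2 lower (8.0%, beside 6.58%) at 1.2-fold. The median was 0.13, beside -0.03 on low fat (0 higher, 1 lower) and -0.01 on high sucrose (4 higher, 1 lower). None of the 19 tested genes of lipoprotein secretion reached 1.2-fold in either direction.

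Listed targets of PPAR alpha, the nuclear receptor that fatty acids activate, did not move together. Pdk4 (1.02) and Plin2 (0.60), named above, are not in this list. Crat, the carnitine acetyltransferase, was higher by 0.56 with its highest value on HP-HS-HF, whereas Vnn1, the pantetheinase that is a strong target of the receptor, lay at -1.08 and Cyp4a8, a fatty acid hydroxylase, at -0.87. Vnn1 had 9.34 on NP-HS-HF and 8.27 on HP-HS-HF, with 9.29 and 9.65 on the other normal protein arrays and 8.11 and 8.46 on the other high protein arrays, so it was lower by a similar amount on all backgrounds. Cyp4a8 differed by -0.55 on low fat and by 0.41 on high sucrose. Decr1, a reductase of unsaturated fatty acid oxidation, lay at -0.41. Of 34 tested genes 5 were higher (14.7%, beside 6.3% of all genes) and 6 lower (17.6%, beside 6.58%) at 1.2-fold. The median was -0.01, and its sign depends on the scaling. Of 51 tested subunits of oxidative phosphorylation 40 lay below 0, with a median of -0.05, beside -0.01 for all genes. Only 2 were lower (3.92%, beside 6.58% of all genes) and 1 was higher (1.96%, beside 6.3%) at 1.2-fold.

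In sterol metabolism, Cyp7b1, the oxysterol hydroxylase of the alternative bile acid pathway, went from 6.96 to 8.21 (1.25, 2.37-fold). All 3 high protein pools (8.22, 7.83 and 8.21) were above the normal protein ones (7.41, 6.91 and 6.96). The nuclear receptor Nr0b2 (SHP), which represses bile acid synthesis, had 10.13 on NP-HS-HF and 9.30 on HP-HS-HF (-0.83), the highest and the lowest array. Cyp7a1, the rate-limiting enzyme of bile acid synthesis, lay at -0.28, and Slco1a4, a sinusoidal organic anion carrier, at -0.75. Of 26 tested genes of bile acids and sterol transport 2 were higher and 3 lower at 1.2-fold, with a median of -0.11. Among genes of cholesterol synthesis, 5 of 24 were higher (20.8%, beside 6.3% of all genes) and 0 lower at 1.2-fold. Squalene epoxidase Sqle (0.62) and the sterol reductase Tm7sf2 (0.59) led them. Both had larger differences on low fat, 1.40 and 1.08, and for Tm7sf2 neither array of the pair was at an extreme.

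Detoxifying enzymes included several of the lowest genes. Cyp2b2, which the nuclear receptor CAR induces, had 10.32 on NP-HS-HF and 9.02 on HP-HS-HF (-1.31), close to its difference of -1.27 on low fat and beyond the -0.33 on high sucrose. Cyp17a1, the steroid hydroxylase and lyase, went from the highest to the lowest of the 6 arrays, 9.38 to 8.32 (-1.06). The aryl hydrocarbon receptor Ahr lay at -0.62 with its lowest value on HP-HS-HF, while its classical target Cyp1a1 was higher by 0.77. The normal protein pools of Ahr were nearly equal (8.80, 8.82 and 8.82). Of 48 tested genes of the list 6 were higher and 7 lower at 1.2-fold, with a median of -0.02. In the NRF2 list 3 of 33 genes were higher and 3 lower, with Hmox1 and the quinone reductase Nqo1 (0.65) at the top. Nqo1 differed by 1.19 on low fat and by -0.23 on high sucrose. Aldh1a1, a cytosolic retinal dehydrogenase, lay at -1.28, from 8.96 to 7.69, and at -1.64 on low fat, whereas Adh6, an alcohol dehydrogenase, was higher by 0.93 with its highest value on HP-HS-HF.

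Stress-induced genes differed in both directions. Atf3, a transcription factor induced by many stresses, had 7.73 on NP-HS-HF and 8.56 on HP-HS-HF (0.83), with 7.56 to 8.09 on the other 4 arrays. Trib3, a pseudokinase induced by ATF4, was higher by 0.51, whereas Nupr1, a small stress-induced chromatin protein, lay at -0.82 with its lowest value on HP-HS-HF. Of 37 tested genes of the integrated stress response and serine synthesis 4 were higher and 3 lower, with a median of 0.03. In the unfolded protein response list 6 of 30 were higher (20.0%, beside 6.3% of all genes) and 0 lower at 1.2-fold. Of the 30, 21 lay above 0, where the median of all genes was -0.01. The low fat pair had 1 higher and 8 lower, with a median of -0.12, against 0.07 here. Its leading member, Tor3a, an ATPase of the endoplasmic reticulum (probe set 10768998), went from 6.62 to 8.25 (1.63, 3.10-fold), with 6.40 to 6.88 on the other 4 arrays. Creld2 (0.49), Sdf2l1 (0.47) and Manf (0.35), which serve protein folding in the same compartment, had their lowest values on NP-HS-HF, and on low fat their protein differences were -0.64, -0.45 and -0.29.

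Clock genes were more often lower. Of 18 tested members 6 were lower at 1.2-fold (33.3%, beside 6.58% of all genes) and 2 higher, with a median of -0.09, while each of the other pairs had 2 lower and 2 higher. Nr1d1 (REV-ERB alpha), a repressor of the core loop, lay at -0.49, Usp2, a clock-controlled deubiquitinase, at -0.36, and both were lowest on HP-HS-HF. Noct, a rhythmic NADP(H) phosphatase, was higher by 0.84 here and by 1.67 on high sucrose. Rgs16, which regulates G protein signals in periportal hepatocytes, lay at -0.54 here and at -2.46 on high sucrose. Among cAMP-responsive and immediate early genes 7 of 29 were higher (24.1%, beside 6.3% of all genes) and 2 lower (6.90%, beside 6.58%). Their median was 0.15, equal to the 0.15 on low fat, and apart from Atf3 none reached 1.5-fold. Zfp36, which promotes decay of cytokine messages, lay at -0.41.

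In the acute phase list 3 of 33 were higher and 3 lower at 1.2-fold (9.09% each way, beside 6.3% and 6.58% of all genes), and A2m, the rat acute phase inhibitor of proteases, had the largest difference, from 7.78 to 6.91 (-0.87), with 0.49 on low fat and -0.98 on high sucrose. Orm1, an acute phase glycoprotein, was higher by 0.48. Among interferon-stimulated genes 3 of 37 were higher (8.11%) and 1 was lower (2.70%), with Rtp4 at 0.65 and Oas1a at 0.54, both lowest on NP-HS-HF. In the cell division list 13 of the 42 genes listed were too dim to test, and of the other 29 tested 4 were higher (13.8%) and 5 lower (17.2%), with 2 higher and 5 lower on each of the other backgrounds. These included Mcm10, a replication factor (0.65), and Cdkn1a, the inhibitor p21 (-0.54). In the insulin and FoxO list, 3 of 32 were higher (9.38%) and 2 lower (6.25%), and the median was -0.06. The stress-induced Sesn1 lay at -0.44 and the transcription factor Foxo3 at -0.43.

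**Figure D4:**
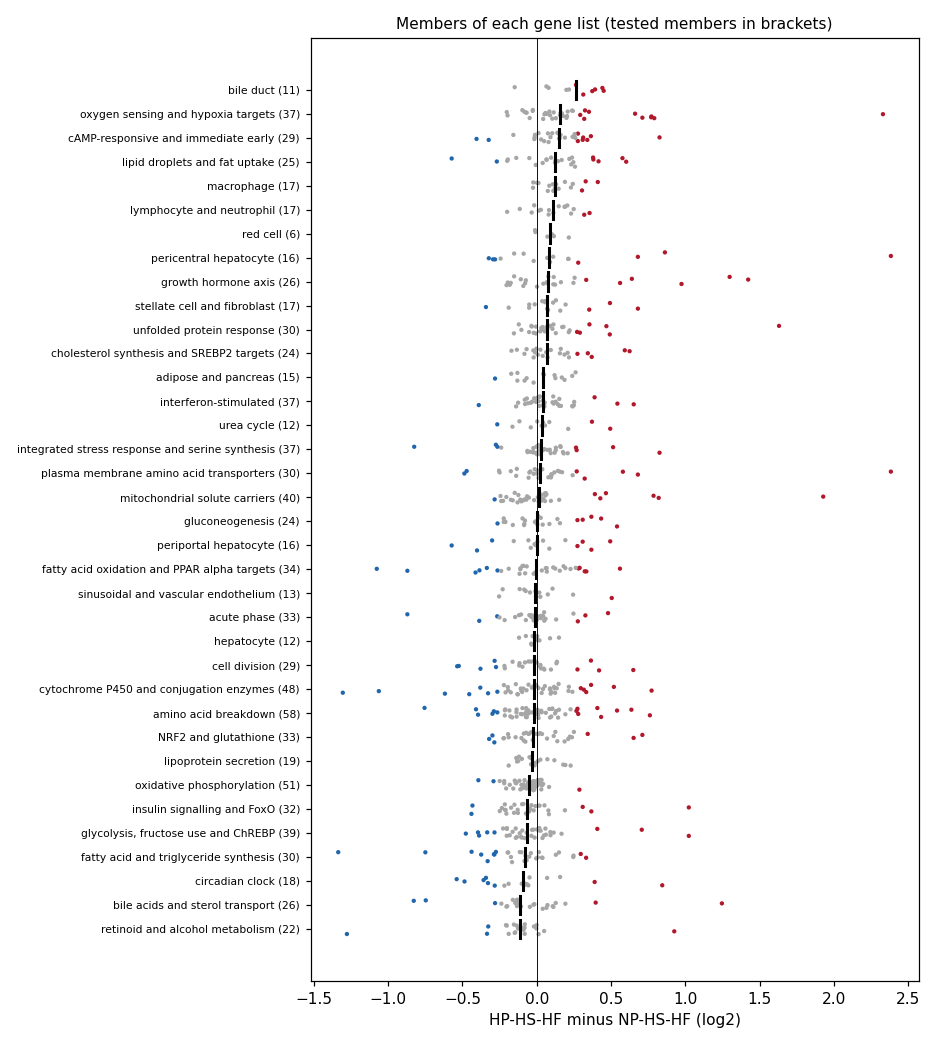
For 36 gene lists (vertical, number of tested members in brackets) each point is 1 gene's log2 difference HP-HS-HF minus NP-HS-HF (horizontal), red or blue where it reached 1.2-fold, and the black bar is the list's median. Medians lie between -0.12 (retinoid and alcohol metabolism) and 0.26 (bile duct markers), while single genes such as Slc1a4, Egln3 and Scd lie far outside.

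Markers of other liver cell types differed in the same comparison. Of 11 tested bile duct markers 6 were higher (54.5%, beside 6.3% of all genes) and 0 lower at 1.2-fold. Among the 6 were the keratins Krt19 (6.04 to 6.49, 0.45) and Krt18 (10.94 to 11.38, 0.44). The list median was 0.26, beside 0.04 on each of the other backgrounds. The summed level of the 11 markers on the log2 scale was 11.90 on NP-HS-HF and 12.21 on HP-HS-HF. Values were summed before the log was taken, so bright Krt18 made up much of this sum and of its rise. The mean of the log2 values, which weighs each marker alike, was 7.03 on NP-HS-HF and 7.27 on HP-HS-HF. Krt18 is also made by hepatocytes, and the defining markers Cftr and Prom1 were too dim to test on these arrays. Of 17 macrophage markers 3 were higher (17.6%) and 0 lower, with a median of 0.12. Their summed levels were 12.72 and 12.85, and the complement component C1qa was higher by 0.41. Of 17 stellate cell and fibroblast markers 3 were higher (17.6%) and 1 was lower (5.88%), with a median of 0.07. The collagen cross-linking enzyme Lox led them at 0.68. Among 17 lymphocyte and neutrophil markers 2 were higher (11.8%) and 0 lower. Endothelial and red cell markers had medians of -0.01 and 0.09. The part of these cell types in the differences of other gene groups was not tested. Pericentral hepatocyte markers had 4 of 16 higher and 3 lower, with Tbx3, a transcription factor of the central zone, at 0.86 beside Slc1a4 and Slc1a2. Periportal markers also had 4 of 16 higher and 3 lower, with Cyp2f4 at -0.40, so neither zone moved as a whole.

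Several leading genes belong to none of the lists. Among the higher ones, Car12, a membrane carbonic anhydrase, had 5.30 on NP-HS-HF and 6.99 on HP-HS-HF (1.70, 3.24-fold), and the 3 high protein pools (6.94, 7.73 and 6.99) lay above the normal protein pools (5.36, 5.40 and 5.30). Spsb4, a SOCS box adaptor of ubiquitin ligases, was higher by 1.42 and Plppr1, a membrane protein related to phospholipid phosphatases, by 1.01, and both separated the protein levels in the same way. Wsb1, another SOCS box adaptor, was 2.29-fold higher. Rgs4, which shortens signals of G proteins, had 5.79 and 7.30 (1.51), with 5.66 and 5.79 on the other normal protein arrays. Its other high protein arrays lay at 6.31 and 5.97, so the protein levels did not overlap and HP-HS-HF was highest. Nceh1, which hydrolyses cholesterol esters, was higher by 0.87 and Car2, the cytosolic carbonic anhydrase, by 0.84. Kcnma1, a potassium channel subunit, was higher by 0.93 and Gria3, a glutamate receptor subunit, by 0.87, both at low levels.

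Among the lower genes, Inhba, the subunit of activin A, had the largest difference (probe set 10798702). It lay at 8.64 on NP-HS-HF and 7.26 on HP-HS-HF (-1.38, 2.61-fold lower), with 8.38 and 8.59 on the other normal protein arrays and 7.27 and 7.28 on the other high protein arrays. Its 3 high protein values were nearly equal, so the low level was found on every background. Reg4, a secreted lectin, lay at -1.34, B3galt1, a galactosyltransferase, at -1.03 and Nuak1, a kinase related to AMPK, at -1.01. For each of these the protein levels did not overlap, and the share of all genes with such a separation was not counted. Gpm6a, a membrane glycoprotein, had its highest value on NP-HS-HF (8.54) and its lowest on HP-HS-HF (7.45). On low fat the high protein pool was the higher one, 8.44 against 7.66, so its direction differed between backgrounds. Hjv, the hemojuvelin that hepatocytes need for hepcidin expression, lay at -0.63.

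Just inside the 1.5-fold bound lay Tm7sf2 (0.59), Tg (0.59) and Cd74 (0.59) on the higher side and Zbtb16 (-0.59), Ust5r (-0.59) and H2az1 (-0.59) on the lower side. Just outside lay Slc6a20a, G0s2 and Clec2l (each 0.58) and Plp2, Galc and Alg6 (each -0.58), so the bound separates no distinct set of genes. H2az1 was the only one of the 124 genes with another tested probe set, which gave -1.92.

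The same genes can be read on the other backgrounds, since those pairs use other pools. Of the 72 higher genes, 45 (62.5%) were also higher by 1.2-fold or more on low fat, where 5.93% of all genes were, and 37 (51.4%) on high sucrose, where 4.9% of all genes were. In both pairs 31 were higher, beside 1.36% of all genes. On the opposite side by 1.2-fold, where 4.26% of all genes lay on low fat and 5.1% on high sucrose, were 7 of them on each. Of the 52 lower genes, 28 (53.8%) were also lower in the low fat pair and 30 (57.7%) in the high sucrose pair, 22 in both (0.972% of all genes), and 2 in each pair were higher. The genes were selected by their size on high sucrose high fat, so a smaller size elsewhere follows in part from the selection. The median of the 72 was 0.74 here, 0.43 on low fat and 0.28 on high sucrose, and that of the 52 was -0.78, -0.28 and -0.33.

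Genes with a difference on all 3 backgrounds included Slc1a4, Egln3, Car12, Spsb4, Cyp7b1, Wsb1 and Plppr1 on the higher side and Inhba, Reg4, Vnn1, Cyp17a1, B3galt1 and Nuak1 on the lower. Slc1a4 and Egln3 were higher everywhere but had their largest differences here, 2.38 against 1.15 and 1.06 for Slc1a4 and 2.33 against 0.91 and 1.00 for Egln3. A further 12 of the higher and 15 of the lower genes differed by less than 1.2-fold on both other backgrounds. Most of all tested genes did so too. On low fat 5.93% of them were higher and 4.26% lower at 1.2-fold, and on high sucrose 4.9% and 5.1%. Examples among the 12 and 15 are Hspb1, a small heat shock protein (0.88 here, -0.09 and 0.09 elsewhere), and Ugt2a3, a glucuronosyltransferase (-0.99 here, -0.25 and -0.22 elsewhere). Whether the protein difference itself depends on the background was not tested, as no diet had a replicate.

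**Figure D5:**
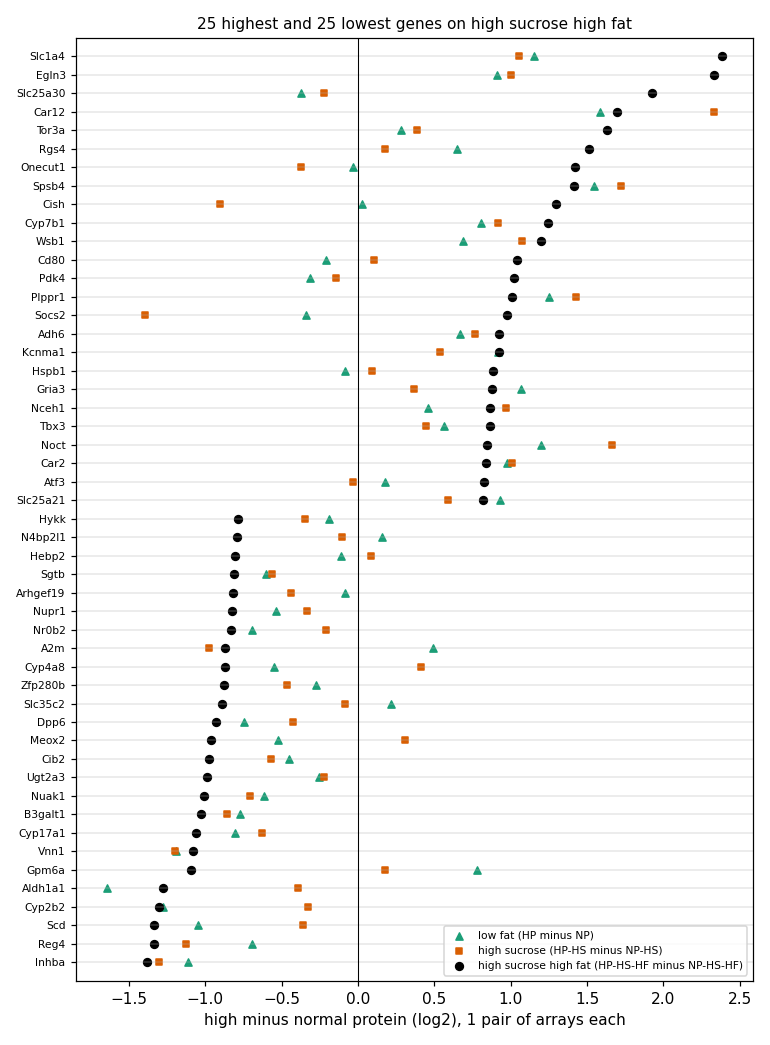
For the 25 highest and 25 lowest genes on high sucrose high fat (vertical) the log2 difference of high minus normal protein (horizontal) is given for low fat (triangles), high sucrose (squares) and high sucrose high fat (circles), each from 1 pair of pools. Slc1a4, Egln3 and Inhba lie on 1 side of 0 on every background, while Slc25a30, Cish, Socs2 and Gpm6a cross it.

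Promoter motifs were counted in RefSeq windows of 300 bases, 250 before and 50 after the start, on both strands, for the 48 higher and 42 lower genes that had a window. TGACG, a short form of cAMP response elements, was found in 15 of the higher genes (31.3%) and 4 of the lower (9.52%), beside 23.0% of all genes. CCAAT was found in 27 (56.3%) and 15 (35.7%), beside 39.6% of all. The E-box CACGTG, which contains ACGTG, was found in 4 and 4, and TATAAA in 8 and 8, beside 7.08% and 15.3% of all genes. TGATGNAA was found in 2 and 1. In these counts all genes are the 27457 with a RefSeq window, whether or not they were tested on the arrays. They are not the 11421 named genes from which the higher and lower genes came, so the shares are not fully alike. These are counts of letters with no test.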

How the data were processed

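Liver RNA pools of 5 rats per diet, 100 ng labelled each and with an RNA integrity number of at least 7.0 per the labels' protocols, were hybridised to 6 Affymetrix whole-transcript arrays. The deposited values are log2 intensities that the authors summarised with RMA, a multi-array average per probe set, as the submitters' processing notes name it; version and settings: not given in the sources used here. They were used as deposited. Of 29214 probe sets 15310 had 1 symbol in the platform annotation, 323 several and 13581 none; 15279 matched RefSeq by Entrez number. Probe sets with a mean above the 30th percentile were kept, and the probe set with the highest mean stood for a gene. Differences, counts at 1.2-, 1.5- and 2-fold and list medians were computed in Python 3.11.15 with pandas 2.3.3, numpy 2.4.6 and statsmodels 0.14.6 (loess), on code tested on simulated data. With 1 array per group no test was run.

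The rule for named genes took the 30 largest differences in each direction at 1.5-fold or more. It also took list members at 1.5-fold or up to 4 per list with the largest size, and the 3 genes nearest the bound on each side. Not every gene that the rule took is described: Cib2 (-0.98), Meox2 (-0.96) and Dpp6 (-0.93) are among those left out. Some further genes were named after their values were seen. Of 1057 list symbols 931 were listed and 880 were tested. The comparison and the 26 pathway and 10 marker lists were chosen with earlier results of these data known, and 3 added lists and the motif TTCNNNGAA after the values were seen. Alternatives were the filter, the scaling (quantile, loess, median centring), the mean of a gene's probe sets and the threshold. Promoter windows came from RefSeq (GRCr8), and probe sets have no coordinates here.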

Additional observations from a re-analysis of the deposited data

Results flagged for a closer look

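Cish, Socs2, Ly6al and Gpm6a differed by more than 1.5-fold in opposite directions on different backgrounds, with 1 pair of pools each, and these differences between backgrounds were not tested. Cish was higher with high protein by 1.30 on high sucrose high fat and lower on high sucrose (-0.91). Socs2 was higher by 0.97 on high sucrose high fat and lower on high sucrose (-1.39). Both are feedback inhibitors of cytokine signalling, and in both the low arrays were NP-HS-HF and HP-HS.

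Ly6al, a member of the Ly6 family, was higher by 0.65 on high sucrose high fat and lower on low fat (-1.40) and on high sucrose (-1.41). Its levels were 7.28 on NP, 6.15 on NP-HS, 5.34 on NP-HS-HF, 5.87 on HP, 4.75 on HP-HS and 5.99 on HP-HS-HF. The 4.75 lies under the log2 5.14 of the filter, and the normal protein pools differed among themselves by more than the compared pair did. Gpm6a lay at -1.09 on high sucrose high fat and was higher by 0.78 on low fat.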

How the results depend on the processing

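Raising the threshold to 2-fold left 14 higher and 10 lower genes of the 72 and 52 at 1.5-fold. Under every other alternative the counts stayed within 1.5 times: 61 to 81 higher and 48 to 56 lower genes with no filter on dim probe sets, a filter at the 50th percentile, new quantile normalization, loess on level, median centring and the mean of a gene's probe sets. Quantile normalization and loess each kept 71 of the higher and 49 of the lower genes. Of 892 values of named genes under scaling and probe set alternatives, 0 of those at 1.5-fold changed direction and 1 moved by more than the SD of the difference across all genes (0.19), H2az1 with the mean of its probe sets (-1.25). The 3 scalings shifted a named gene by at most 0.07. List medians moved by less than the same SD in 197 of 197 values, including those without members that are also markers of other cell types, an alternative chosen after seeing the data. Medians of 7 lists near 0 changed sign with the scaling: mitochondrial solute carriers, gluconeogenesis, fatty acid oxidation and PPAR alpha targets, cytochrome P450 and conjugation enzymes, NRF2 and glutathione, periportal hepatocyte, and sinusoidal and vascular endothelium. No replicate could be left out, as each diet had 1 array. No paired analysis was possible because HP-HS-HF and NP-HS-HF form a single pair of arrays, and a fit over the 3 protein pairs answers another question and was not run. Signal over background limits the dim probe sets: the dimmest of 3 equal classes of genes by mean level (3807 each) held 18 higher and 10 lower genes, the brightest 26 and 29.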

Other observations

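A list of antigen presentation genes was drawn up after the values were seen, so its counts are a description. Of 34 tested members 10 were higher (29.4%, beside 6.3% of all genes) and 0 lower at 1.2-fold, with a median of 0.15. The low fat pair had 1 higher and 3 lower (median 0.01) and the high sucrose pair 4 higher and 2 lower (median 0.05). Cd74, the invariant chain of class II molecules, lay at 10.15 on NP-HS-HF and 10.74 on HP-HS-HF (0.59), with 10.54 to 10.80 on the other 4 arrays. RT1-N2, a class I gene, was higher by 0.65 and RT1-DMb, which loads class II molecules, by 0.51. Cd80, a costimulatory ligand, was dim, with 4.79 on NP-HS-HF, under the filter's log2 5.14, and at most 5.83 on any array, so its difference of 1.04 is uncertain. For these 4 genes the NP-HS-HF array was the lowest of the 6. For RT1-N2 the HP-HS array was nearly as low (7.62 and 7.75), and for Cd80 HP-HS-HF was also the highest array. Transcripts of related RT1 genes can bind the same probes, so single RT1 values are uncertain. Macrophage markers had a median of 0.12 in the same comparison, and their part in the result was not tested.

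Heat shock genes, another list drawn up after the values were seen, had 7 of 18 members higher (38.9%, beside 6.3% of all genes) and 0 lower at 1.2-fold (6.58% of all genes), with a median of 0.20. The low fat pair had 0 members past 1.2-fold (median -0.01) and the high sucrose pair 1 higher (median 0.09). Hspb1, a small chaperone, had 8.69 on NP-HS-HF and 9.57 on HP-HS-HF, with 7.95 to 8.34 on the other 4 arrays, so both high fat pools were above the rest. Zfand2a, a proteasome-associated protein, was higher by 0.79 and the co-chaperone Dnajb1 by 0.44, each lowest on NP-HS-HF and highest on HP-HS-HF. Of 5 tested glucuronosyltransferases, a list of the same origin, 2 were lower (6.58% of all genes). Ugt2a3 went from 9.39 to 8.40, with 9.10 to 9.49 on the other 4 arrays, and Ugt2b from 12.08 to 11.43 (-0.64).

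Of the 8189 unnamed probe sets tested, 96 were higher and 82 lower at 1.5-fold, which is 2.17% of them, where all 20450 probe sets tested held 171 and 135. Their median level was 6.71, below the 7.47 of the named genes. The largest differences were 1.73 (probe set 10801778, from 7.92 to 9.66) and -2.05 (probe set 10888777, from 6.33 to a dim 4.28).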
